A study of Homo sapiens with 54 samples.

Results

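The genes described here are TRIM28, the corepressor that KRAB zinc finger proteins (KRAB-ZFPs) recruit, 6 chromatin genes whose products work with it (SETDB1, CBX1, CBX3, CBX5, CHD3 and EHMT2) and the 3 catalytic DNA methyltransferases DNMT1, DNMT3A and DNMT3B. They were taken by symbol from the deposited gene tables, where all 10 of the 10 symbols were found among 59368 genes. RNA-seq was performed on DLD-1, HCT-116 and HT-29, established human colorectal cancer (CRC) lines, each in a sensitive form and in a form labelled resistant to 5-fluorouracil (5-FU), a pyrimidine analogue that inhibits thymidylate synthase and is incorporated into RNA and DNA. Cells were exposed for 24 h to 10 µM uracil, which served as the control, or to 10 µM 5-FU. In the third treatment the 24 h of 10 µM 5-FU were followed by a change of medium and irradiation at the median lethal dose of each line. The paper's methods text gives no time from irradiation to harvest for these samples. Each of the 18 conditions had 3 biological replicates, giving 54 libraries. The resistant forms had been obtained by passaging the lines in stepwise increasing 5-FU concentrations. The paper states that they are maintained in 5-FU, at a concentration above the 10 µM tested here. The control of resistant cells was also uracil. Each resistant form is 1 derived culture per line, so its 3 replicates do not tell selection for resistance apart from drift of that culture or from its long exposure to 5-FU.

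KRAB-ZFPs bind DNA, often within transposable elements, through their zinc fingers and bring TRIM28 to those sites through the KRAB domain. TRIM28 in turn acts as a scaffold for SETDB1, the histone methyltransferase that trimethylates H3K9, for the heterochromatin proteins HP1β, HP1γ and HP1α (encoded by CBX1, CBX3 and CBX5), which read this mark. CHD3 is an ATPase of the NuRD remodelling and deacetylase complex, which TRIM28 also binds. EHMT2 (G9a) places the lower methylation states of H3K9. DNMT1 copies CpG methylation onto newly replicated DNA and its expression follows DNA replication, whereas DNMT3A and DNMT3B methylate unmodified CpG sites.

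Levels are given as TPM (a relative abundance that takes the length of transcripts and the depth of the library into account), and differences as log2 fold changes of gene counts from edgeR, where a positive value means higher in the group named first. Calls required a p of at most 0.01 after Benjamini-Hochberg adjustment over all genes tested. The fold changes carry a scaling between libraries (TMM) that TPM as deposited does not, so counts and TPM need not agree. A count also changes when reads move between long and short transcripts of a gene, so counts were also rescaled to a common transcript length, an alternative chosen after the data were seen. Its value is printed where it ended a call or turned its direction. The libraries held 38957142 to 218518344 estimated counts (median 51373543), and all 10 genes passed the filter on low counts in every fit, with at least 217 counts in every library. Replicates of a condition differed by more than counting noise in all 54 pairs (lowest chi-square per degree of freedom 2.31), so none were merged.

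The libraries labelled resistant HT-29 went against their label. Of 46 genes that were at 10 TPM or more in all 3 uracil libraries of sensitive HCT-116 and at most 0.1 TPM in those of the other lines, 95.7% reached 1 TPM in each of the 9 libraries labelled resistant HT-29. Of the 5 markers found in the same way for sensitive HT-29 none did (0%), nor any of the 17 that marked DLD-1 (0%). Resistant DLD-1 libraries held 94.1% of the DLD-1 markers and resistant HCT-116 libraries 95.7 to 97.8% of the HCT-116 markers. Every difference between the libraries labelled resistant HT-29 and sensitive HT-29 therefore cannot be told apart from a difference between lines, and for the 10 genes under uracil the value against sensitive HCT-116 is given as well. Of 8 colorectal epithelial markers, 8 in DLD-1 and 6 in each other background had a mean of at least 1 TPM. Of the rest, CDH17 was under 1 TPM in every background but DLD-1, CDX2 in sensitive HT-29, and VIL1 in HCT-116 and the libraries labelled resistant HT-29. Of markers of other cell types, 1 of 4 for fibroblasts, 1 or 2 of 4 for leukocytes and at most 1 of 3 for endothelium reached 1 TPM, with COL1A2, PTPRC, CD3E, VWF and CDH5 under 1 TPM in every background. Their summed TPM in a library reached 31.4 for fibroblasts, in sensitive HCT-116. It reached 26.3 for leukocytes and 5.43 for endothelium, both in sensitive HT-29.

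TRIM28 (chr19:58544064-58550722, plus strand; coordinates are those of GENCODE 44 on GRCh38) was the most abundant of the 10 genes per length in all 54 libraries, from 426 to 1249 TPM. CBX3 (chr7:26201162-26213607, plus strand) followed at 256 to 458 TPM, then CBX1 (chr17:48070052-48101478, minus strand) at 89.9 to 213 TPM and DNMT1 (chr19:10133342-10231286, minus strand) at 60.1 to 159 TPM. The histone methyltransferases were lower and varied little, SETDB1 (chr1:150926263-150964744, plus strand) between 24.5 and 39.4 TPM and EHMT2 (chr6:31879759-31897698, minus strand) between 32.6 and 58 TPM. CBX5 (chr12:54230942-54280133, minus strand) spanned 23.5 to 80.8 TPM and CHD3 (chr17:7884796-7912760, plus strand) 33.2 to 91.2 TPM. The de novo enzymes were scarce: DNMT3A (chr2:25227855-25342590, minus strand) lay between 6.25 and 24 TPM, and DNMT3B (chr20:32762385-32809359, plus strand) had the widest span, from 1.65 to 15.9 TPM, a 9.61-fold range. When the 18 conditions were put in order of the mean level, neighbours overlapped in their replicates in 11 to 16 of the 17 steps for each gene, so the order is resolved only at its larger steps. For DNMT3B the largest step had HCT-116 and the libraries labelled resistant HT-29 above all others.

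**Figure D1:**
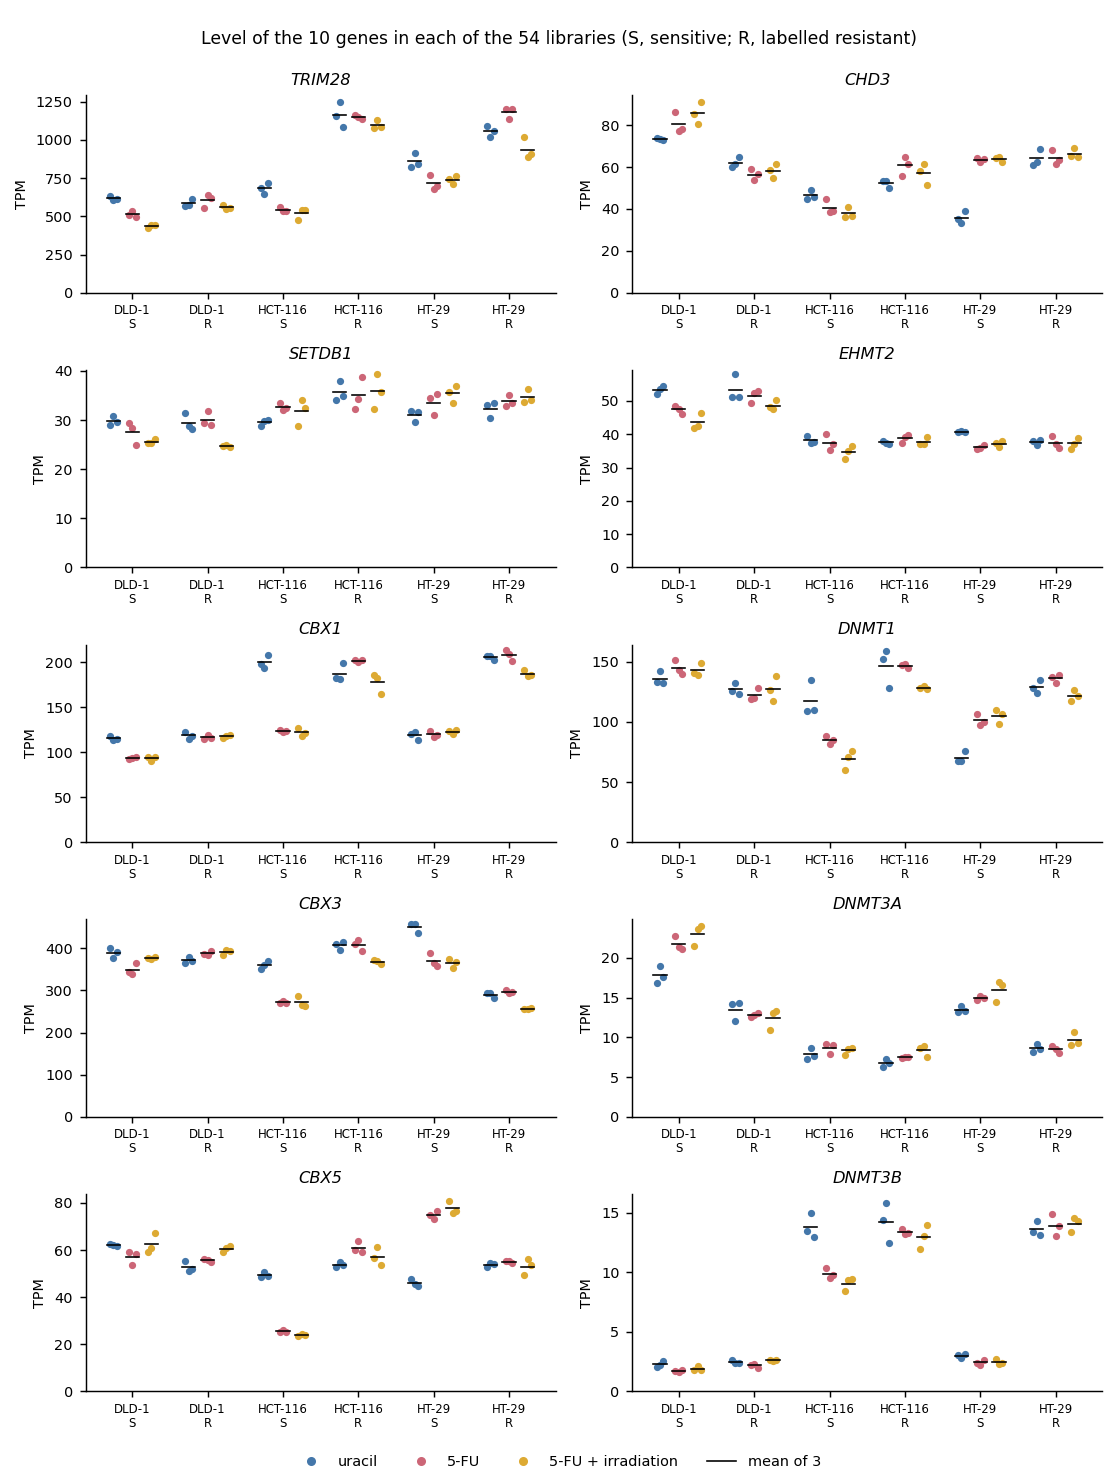
Each panel plots the TPM of 1 gene (linear axis from 0) in the 54 libraries, grouped by line and by sensitive (S) or labelled resistant (R) form. Points are libraries coloured by treatment and bars are means of 3; DNMT3B was at 8.40 TPM or more in all HCT-116 libraries and in those labelled resistant HT-29 and at most 3.12 TPM elsewhere.

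DNMT3A is transcribed from an upstream start, which gives the long enzyme, and from a downstream start inside the gene, which gives the shorter isoform known as DNMT3A2. In GENCODE 44 the 2 downstream transcripts begin at position 25252311 and code for 723 and 689 residues, against 912 for the full-length upstream ones. RefSeq lists 3 starts in the upstream region and 3 in the downstream one. The windows around them, which run from 250 bases before to 50 after a start and partly overlap, hold 18, 26 and 46 CpG dinucleotides upstream and 28, 26 and 18 downstream, so the regions are not told apart by their number. Since the libraries differed in which region was used, the 250 bases before the outermost start of each (RefSeq, GRCh38.p14, minus strand) are shown, with CpG dinucleotides in capitals. They lie at chr2:25342591-25342840 with 12 CpG, before the start of the transcript DNMT3A-201, and at chr2:25252316-25252565 with 25 CpG.
DNMT3A upstream start: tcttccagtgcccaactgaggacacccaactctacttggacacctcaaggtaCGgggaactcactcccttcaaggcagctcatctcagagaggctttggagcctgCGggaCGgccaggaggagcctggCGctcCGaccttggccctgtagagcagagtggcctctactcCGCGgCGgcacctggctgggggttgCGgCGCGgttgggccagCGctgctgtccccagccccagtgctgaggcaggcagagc
DNMT3A downstream start: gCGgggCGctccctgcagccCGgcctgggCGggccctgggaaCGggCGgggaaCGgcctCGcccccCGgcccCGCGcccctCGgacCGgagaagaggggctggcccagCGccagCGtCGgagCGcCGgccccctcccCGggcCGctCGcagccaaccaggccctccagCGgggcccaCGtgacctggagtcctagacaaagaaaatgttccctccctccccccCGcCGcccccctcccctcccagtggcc

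The median over 34796 RefSeq start windows was 11 CpG in the 250 bases before the start. Transcripts from the downstream start made up 43.3 ± 2.90% (SD, n = 3) of DNMT3A TPM in sensitive DLD-1 under uracil and 55.2 ± 3.99% in sensitive HT-29, but 1.24 ± 2.15% in sensitive HCT-116. By library the shares were 46.6%, 42.2% and 41.2% in DLD-1, 50.9%, 55.8% and 58.8% in HT-29 and 3.72%, 0% and 0% in HCT-116, with no overlap between HCT-116 and the other lines. The libraries labelled resistant HT-29 stood with HCT-116 at 0 to 1.35%, and resistant HCT-116 ranged from 2.10 to 6.82%. In resistant DLD-1 the share was 30.7 ± 7.29%, and its 3 libraries (34.3%, 35.5% and 22.3%) all lay under those of sensitive DLD-1. Under 5-FU the downstream share was lower in sensitive HT-29, at 42.1%, 36.8% and 33.9%, and in sensitive DLD-1, at 33.3%, 33.7% and 36.8%, without overlap with uracil in either line. The upstream share of sensitive DLD-1 did not rise, at 25.5%, 23.3% and 25% under uracil and 25.9%, 24.8% and 22.4% under 5-FU. The rest of DNMT3A TPM came from transcripts assigned to neither start, so a lower downstream share need not mean more use of the upstream one. In sensitive HT-29 the upstream transcripts went from 1.72 ± 0.133 TPM to 3.46 ± 0.370 TPM and the downstream ones from 7.44 ± 0.640 TPM to 5.62 ± 0.564 TPM. These shares are kallisto estimates for transcripts that overlap over most of their length, and no test was made of them.

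**Figure D2:**
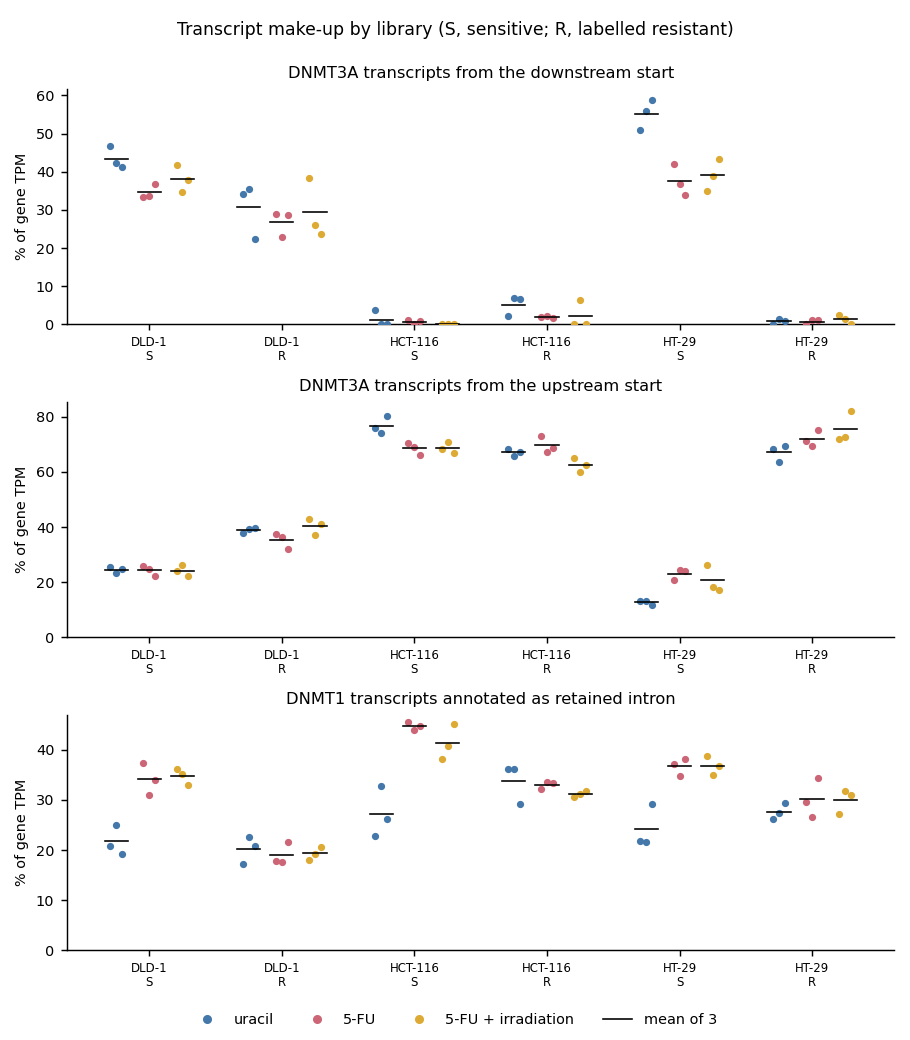
The share of DNMT3A TPM from the downstream and the upstream start, and of DNMT1 TPM from transcripts annotated as retained intron, is plotted in percent for the 54 libraries (points, coloured by treatment; bars, means of 3; S, sensitive; R, labelled resistant). HCT-116 and the libraries labelled resistant HT-29 sit near 0 for the downstream start, and the 5-FU points of DNMT1 lie above the uracil points in the 3 sensitive lines.

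The first comparison asked how the TRIM28 machinery responded to 5-FU in sensitive cells. TRIM28, CBX1, CBX3, EHMT2 and DNMT3B fell in counts in all 3 lines, where the log2 fold changes lay between -0.73 and -0.19. DNMT1 and CBX5 responded differently from line to line, with their largest falls in HCT-116, and CBX5 rose in HT-29. In DLD-1, 1 of the 10 genes was called higher and 7 lower, where 14.4% of all genes tested were higher and 20.3% lower. In HCT-116 none was higher and 8 were lower, against 17.6% and 24.4% of all genes, and in HT-29 2 were higher and 7 lower, against 22.1% and 24.9%. The median log2 fold change of the 10 genes, line by line in that order, was -0.28, -0.42 and -0.23, where the median of all genes was 0.015, 0.025 and 0.035. None of the 10 changed by 2-fold or more, as 4.02%, 8.14% and 12.2% of all genes did. Scaling by library size alone raised the median of all genes to 0.12, 0.11 and 0.19, so the changes are relative to that of a typical gene. In bulk libraries fewer cells of a kind and less RNA per cell cannot be told apart. In DLD-1 41.5% of the calls were higher, against 60.8% with library size alone. HCT-116 had 42% and 53.5%, and HT-29 47% and 62.1%. With that scaling 2, 0 and 3 of the 10 genes were higher and 7, 6 and 4 lower.

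**Figure D3:**
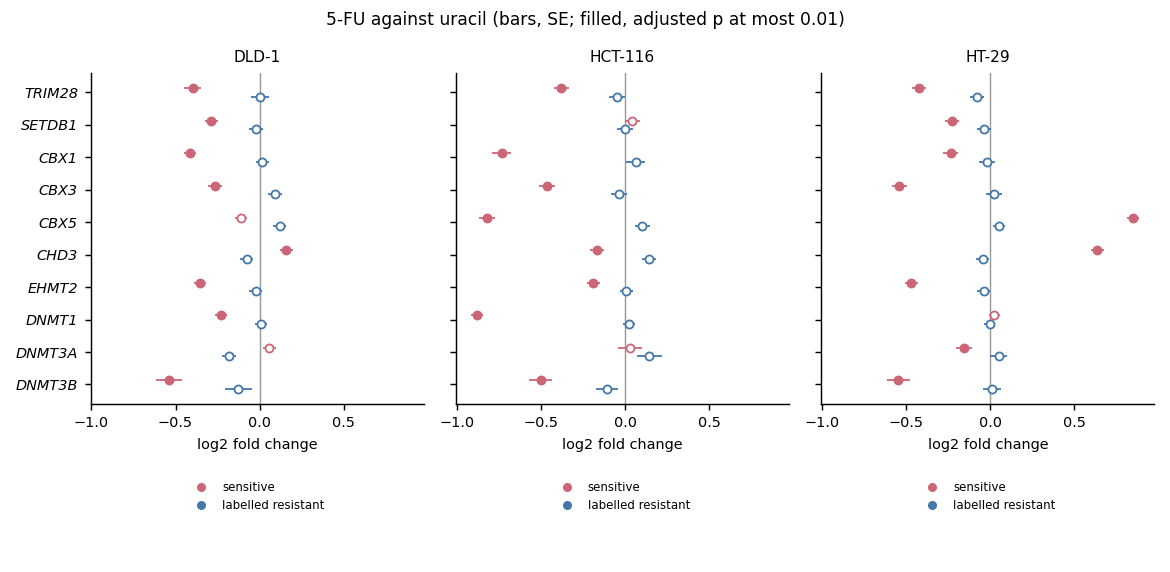
The log2 fold change of each gene under 5-FU against uracil (x axis; bars, SE) is plotted per line for sensitive cells and cells labelled resistant, with filled points at an adjusted p of at most 0.01. Filled points occur only for sensitive cells, with CBX5 at -0.82 in HCT-116 and 0.85 in HT-29.

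TRIM28 stood at 635, 604 and 616 TPM under uracil and at 509.8, 534 and 494 TPM under 5-FU in sensitive DLD-1. In HCT-116 the 3 libraries went from 688, 647 and 720.3 TPM to 561, 537 and 534 TPM, and in HT-29 from 819.9, 916 and 842 TPM to 769, 681 and 700.2 TPM. In each line every 5-FU library was below every uracil library. The log2 fold change was -0.40 (SE 0.052, adjusted p = 2.01e-06) in DLD-1, -0.38 (SE 0.047, adjusted p = 4.63e-07) in HCT-116 and -0.43 (SE 0.042, adjusted p = 1.80e-09) in HT-29, which are close to one another. No pair of lines passed the test of a different response, with differences of 0.04 (SE 0.06, adjusted p = 0.671) for HCT-116 minus DLD-1, 0.037 (SE 0.06, adjusted p = 0.687) for HT-29 minus DLD-1 and -0.0023 (SE 0.06, adjusted p = 1.00) for HT-29 minus HCT-116.

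Among the H3K9 methyltransferases, SETDB1 fell in DLD-1, by a log2 fold change of -0.29 (SE 0.039, adjusted p = 3.90e-06), and in HT-29, -0.23 (SE 0.042, adjusted p = 4.52e-05), but not in HCT-116, 0.044 (SE 0.046, adjusted p = 0.448). Its TPM was 29 to 30.8 under uracil and 24.9 to 29.4 under 5-FU in DLD-1, which overlapped, and 29.7 to 31.8 and 31 to 35.3 in HT-29, which overlapped and were not lower under 5-FU. The HT-29 call ended with library size alone (-0.07, adjusted p = 0.215), at a common transcript length (-0.14, adjusted p = 0.0398) and without sensitive 5-FU replicate 1 (log2 fold change -0.14, adjusted p = 0.0109). EHMT2 fell in all 3 lines, by -0.35 (SE 0.036, adjusted p = 6.46e-08) in DLD-1, -0.19 (SE 0.039, adjusted p = 3.39e-04) in HCT-116 and -0.47 (SE 0.038, adjusted p = 6.39e-11) in HT-29. In HT-29 its libraries were tightly grouped, 40.6, 40.9 and 40.8 TPM under uracil against 35.6, 36 and 36.7 TPM under 5-FU. The HCT-116 call of EHMT2 ended with library size alone (-0.10, adjusted p = 0.0279) and at a common transcript length (-0.05, adjusted p = 0.423).

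The 3 HP1 genes did not move as a block. CBX1, encoding HP1β, fell from 199, 193 and 207 TPM to 125, 123 and 123 TPM in HCT-116, a log2 fold change of -0.73 (SE 0.057, adjusted p = 3.15e-10). In DLD-1 it fell from 117, 114 and 114 TPM to 92.2, 93.1 and 94.3 TPM, -0.41 (SE 0.038, adjusted p = 1.52e-08). The groups did not overlap in either line. In HT-29 the change of -0.24 (SE 0.046, adjusted p = 8.78e-05) was smaller, with TPM of 113 to 123 and 117 to 124 that overlapped and were not lower under 5-FU. The call ended with library size alone (-0.079, adjusted p = 0.0345) and without sensitive 5-FU replicate 2 or 3 or sensitive uracil replicate 1 or 2 (log2 fold change -0.13 to -0.16, adjusted p 0.0117 to 0.0202). CBX3, encoding HP1γ, fell in every line. It went from 458, 457 and 436 TPM to 388, 365 and 358 TPM in HT-29 (-0.54, SE 0.047, adjusted p = 1.97e-10) and from 350.3, 359 and 370.2 TPM to 271, 276 and 269 TPM in HCT-116 (-0.46, SE 0.047, adjusted p = 2.62e-08). The DLD-1 value was -0.26 (SE 0.041, adjusted p = 2.02e-05). The uracil and 5-FU libraries of CBX3 did not overlap in any of the 3 lines.

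CBX5, encoding HP1α, went in opposite directions in 2 of the lines. In HCT-116 it was at 48.6, 50.6 and 49.2 TPM under uracil and 25.4, 26.1 and 25.2 TPM under 5-FU, a log2 fold change of -0.82 (SE 0.048, adjusted p = 2.54e-12). In HT-29 it was at 47.6, 45.7 and 44.6 TPM under uracil and 74.9, 73.3 and 76.5 TPM under 5-FU, 0.85 (SE 0.037, adjusted p = 2.44e-16). DLD-1 was called neither way at -0.11 (SE 0.037, adjusted p = 0.0166), though at a common transcript length it passed, at -0.23 (adjusted p = 3.67e-04), as it did without sensitive 5-FU replicate 1, -0.14 (adjusted p = 0.00891). The difference between the HT-29 and HCT-116 responses was 1.72 (SE 0.055, adjusted p = 8.86e-18), the largest among the 10 genes in the comparisons of responses between lines. The long CBX5 transcript CBX5-201 (11546 bases) was at 19.1 ± 0.909 TPM under uracil and 44.4 ± 0.281 TPM under 5-FU in HT-29, whereas the short CBX5-202 (1832 bases) was at 13.6 ± 1.12 and 13.4 ± 2.51 TPM. At a common transcript length the HT-29 response of CBX5 was 0.45 (adjusted p = 3.26e-08) and the HCT-116 response -0.97 (adjusted p = 3.14e-13).

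CHD3, the NuRD ATPase, rose in HT-29 from 35.3, 33.2 and 39 TPM to 64.3, 62.2 and 63.8 TPM, a log2 fold change of 0.64 (SE 0.039, adjusted p = 2.29e-13). All 3 libraries under 5-FU were above those under uracil. In DLD-1 the rise was 0.16 (SE 0.039, adjusted p = 0.00205) and in HCT-116 CHD3 fell, -0.17 (SE 0.041, adjusted p = 0.00132). Both of these small calls depended on the processing. The DLD-1 one ended at a common transcript length (0.022, adjusted p = 0.782) and without sensitive 5-FU replicate 1 or sensitive uracil replicate 1 (log2 fold change 0.14, adjusted p 0.0166 to 0.0168). The HCT-116 one ended with library size alone (-0.083, adjusted p = 0.111). The response of HT-29 exceeded that of HCT-116 by 0.85 (SE 0.052, adjusted p = 1.03e-12) and that of DLD-1 by 0.54 (SE 0.051, adjusted p = 5.82e-09).

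DNMT1, the maintenance methyltransferase, had the largest fall in counts of the 10 genes in HCT-116. Its level went from 109, 135 and 109.7 TPM to 88, 81.3 and 84.5 TPM and its log2 fold change in counts was -0.88 (SE 0.036, adjusted p = 6.04e-15), which became -0.50 (adjusted p = 1.66e-05) at a common transcript length. In DLD-1 the counts fell by a log2 fold change of -0.23 (SE 0.036, adjusted p = 2.23e-05), a call that ended at a common transcript length (-0.021, adjusted p = 0.765). The TPM of 132 to 143 and 139.8 to 151 overlapped. In HT-29 the counts did not pass, 0.022 (SE 0.033, adjusted p = 0.602), while TPM went from 67.6, 67.3 and 75.9 to 107, 97.3 and 99.9 without overlap. The value was 0.28 (adjusted p = 1.82e-05) at a common transcript length and 0.18 (adjusted p = 1.47e-05) with library size alone. Counts and TPM of DNMT1 thus disagreed in DLD-1 and HT-29, and the HCT-116 fall was seen on both scales.

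By kallisto estimates, which divide reads among overlapping transcripts and were not tested here, the transcripts of DNMT1 shifted in all 3 sensitive lines. Those annotated as retained intron, 12 transcripts without a coding sequence, made up 20.9%, 25% and 19.2% of DNMT1 TPM under uracil and 37.4%, 30.9% and 34% under 5-FU in DLD-1. In HCT-116 the shares were 22.8%, 32.7% and 26.1% and 45.6%, 44% and 44.7%, and in HT-29 21.9%, 21.5% and 29.3% and 37.2%, 34.8% and 38.3%. Under 5-FU every library was above every uracil library of its line. Over all transcripts of a library, the retained-intron share of TPM moved in the same direction but little, from 6.45% to 6.95% in DLD-1, 6.27% to 7.19% in HCT-116 and 5.81% to 6.45% in HT-29 (means of 3). Its part in the DNMT1 shares was not tested. The coding transcripts of DNMT1 went from 80.8 ± 3.89 TPM to 40.7 ± 1.23 TPM in HCT-116, from 100.4 ± 0.847 TPM to 88.8 ± 1.06 TPM in DLD-1 and from 49.7 ± 1.30 TPM to 58.5 ± 2.13 TPM in HT-29. In resistant DLD-1 the retained-intron share was 17.2%, 22.6% and 20.9% under uracil and 17.9%, 17.7% and 21.5% under 5-FU, which overlapped. In resistant HCT-116 it was already 36.2%, 36.1% and 29.2% under uracil, overlapping sensitive HCT-116 under uracil, and 32.1%, 33.6% and 33.5% under 5-FU. In the libraries labelled resistant HT-29 it was 26.2%, 27.3% and 29.4% and 29.5%, 26.6% and 34.4%. Uracil and 5-FU overlapped in both.

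The de novo methyltransferases differed from one another. DNMT3B fell in every line. Its levels went from 13.5, 15 and 13 TPM to 10.3, 9.53 and 9.80 TPM in HCT-116 (-0.50, SE 0.067, adjusted p = 1.48e-06) and from 3.06, 2.85 and 3.12 TPM to 2.39, 2.26 and 2.67 TPM in HT-29 (-0.55, SE 0.068, adjusted p = 1.33e-07). In DLD-1 they went from 2.07, 2.25 and 2.53 TPM to 1.73, 1.65 and 1.80 TPM (-0.54, SE 0.079, adjusted p = 9.83e-06). The groups did not overlap in any line, and no pair of lines passed the test of a different response (0.057, 0.059 and 0.0018 for the 3 pairs, adjusted p = 0.677, 0.695 and 1.00). DNMT3A was not called in DLD-1, 0.057 (SE 0.038, adjusted p = 0.246), or HCT-116, 0.029 (SE 0.072, adjusted p = 0.756). Its TPM was nevertheless higher under 5-FU without overlap in DLD-1, at 16.9, 19 and 17.5 under uracil and 22.8, 21.4 and 21.1 under 5-FU, while the 7.24 to 8.70 and 7.91 to 9.22 TPM of HCT-116 overlapped. With library size alone the DLD-1 value passed, 0.16 (adjusted p = 0.00455). The HT-29 call in counts, -0.16 (SE 0.049, adjusted p = 0.00779), went against TPM, which was 13.2, 14 and 13.3 under uracil and 14.7, 15.3 and 14.9 under 5-FU, higher without overlap, so no direction is read from it. That call ended with DESeq2 (-0.14, adjusted p = 0.0179), with library size alone (-0.0006, adjusted p = 1.00), and without the filter on low counts (-0.15, adjusted p = 0.0298). It also ended with only the groups compared in the fit (-0.14, adjusted p = 0.0258), at a common transcript length (-0.10, adjusted p = 0.263) and without any 1 of the 6 libraries compared (log2 fold change -0.057 to -0.13, adjusted p 0.066 to 0.415).

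The response to 5-FU differed between lines beyond the test's threshold for 6 of the 10 genes in HCT-116 minus DLD-1 (28.0% of all genes), 4 in HT-29 minus DLD-1 (30.2%) and 6 in HT-29 minus HCT-116 (38.0%). At a common transcript length the call of CHD3 ended for HCT-116 minus DLD-1 (-0.22, adjusted p = 0.0227), that of CBX1 for HT-29 minus DLD-1 (0.25, adjusted p = 0.0133) and that of SETDB1 for HT-29 minus HCT-116 (-0.21, adjusted p = 0.0374). These comparisons share the libraries of each line. Replication and cycling genes are given beside these values because DNMT1 is expressed with DNA replication. Of 20 such genes, all 20 fell under 5-FU in sensitive HCT-116 (median log2 fold change -1.33), among them MCM7 at -1.69, TOP2A at -1.68, MCM5 at -1.66 and GINS2 at -1.61. In HT-29 11 rose and 5 fell (median 0.18), with CCNE2, the G1/S cyclin, at 1.5, and in DLD-1 1 rose and 9 fell (median -0.12). In HCT-116 and HT-29 the median had the sign of the CBX5 change; the part of these genes in the CBX5 and DNMT1 values was not tested.

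The wider pathway was described from gene lists, to be read beside the 5-FU response of all genes tested in sensitive cells. Higher genes made up 14.4% of these for DLD-1, 17.6% for HCT-116 and 22.1% for HT-29. Lower genes made up 20.3%, 24.4% and 24.9%, with medians over all genes of 0.0146, 0.0252 and 0.0345. The lists are short, and some of their counts lie close to such percentages. Of 12 other NuRD and corepressor genes, such as CHD4, HDAC1 and MTA2, 1 rose and 5 fell in DLD-1, 1 rose and 6 fell in HCT-116 and 3 rose and 7 fell in HT-29 (medians -0.10, -0.18 and -0.15). Of 10 other genes of H3K9 methylation and the HUSH complex, which silences transposable elements with SETDB1, 2 rose and 4 fell in DLD-1, 1 rose and 5 fell in HCT-116 and 1 rose and 6 fell in HT-29 (medians -0.025, -0.15 and -0.26). SUV39H1, which trimethylates H3K9, was at -1.30 in HCT-116. Of 12 tested readers, cofactors and erasers of DNA methylation, 2 rose and 1 fell in DLD-1, 4 rose and 3 fell in HCT-116 and 2 rose and 6 fell in HT-29 (medians -0.023, -0.0079 and -0.18). H3K9 demethylases numbered 7 tested, of which 0 rose and 5 fell in DLD-1, 2 rose and 4 fell in HCT-116 and 0 rose and 4 fell in HT-29 (medians -0.21, -0.26 and -0.25), with KDM4D at -1.17 in HCT-116. The 3 TRIM28 relatives TRIM24, TRIM33 and TRIM66 all fell in HT-29 (median -0.78), and 1 of them fell in each of the other lines.

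The same dose was then followed in cells labelled resistant. None of the 10 genes passed the test under 5-FU in resistant DLD-1, resistant HCT-116 or the libraries labelled resistant HT-29 by edgeR. At an unadjusted p of at most 0.05, 3, 2 and 0 of the 10 were below the threshold, as were 18.5%, 8.17% and 5.39% of all genes. Of the 10, DESeq2 called 1, 0 and 0, the one in DLD-1 being DNMT3A at -0.18 (adjusted p = 0.00396). Few genes of any kind were called, 0.385% of all genes tested in DLD-1 and 0% in HCT-116, where 1878 genes had an unadjusted p under 0.05 and DESeq2 called 8. In the libraries labelled resistant HT-29 0.0421% were called. TRIM28 was at 567, 574 and 614 TPM under uracil and 555, 641 and 618 TPM under 5-FU in resistant DLD-1. In resistant HCT-116 these were 1156, 1249 and 1082 and 1163, 1148 and 1138 TPM, and with the resistant HT-29 label 1089.5, 1019.9 and 1059 and 1201, 1136 and 1201 TPM. The log2 fold changes of TRIM28 in counts were 0.0024 (SE 0.052, adjusted p = 0.99), -0.048 (SE 0.047, adjusted p = 0.805) and -0.08 (SE 0.042, adjusted p = 0.957). In the libraries labelled resistant HT-29 its TPM was higher under 5-FU without overlap, while the fold change was below 0 in counts and 0.13 (adjusted p = 0.984) at a common transcript length, so no direction is read from it. CBX5 and DNMT1, which fell most in sensitive HCT-116, were at 0.10 (SE 0.047, adjusted p = 0.582) and 0.026 (SE 0.036, adjusted p = 0.872) in resistant HCT-116.

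Whether the resistant response differed from the sensitive one was tested directly with the interaction term. It passed for all 10 genes in DLD-1, where it passed for 22.8% of all genes, for 8 in HCT-116 (29.7% of all genes) and for 7 in the HT-29 libraries (35.4% of all genes). The resistant response was the higher one for TRIM28 in each line, by 0.40 (SE 0.073, adjusted p = 2.16e-04) in DLD-1, 0.33 (SE 0.066, adjusted p = 3.29e-04) in HCT-116 and 0.35 (SE 0.059, adjusted p = 2.20e-05) in HT-29. CBX5 differed by 0.93 (SE 0.067, adjusted p = 2.70e-10) in HCT-116 and by -0.80 (SE 0.051, adjusted p = 2.19e-12) in HT-29, in opposite directions. DNMT1 differed by 0.91 (SE 0.051, adjusted p = 3.60e-12) in HCT-116. In DLD-1 10 calls became 4 at a common transcript length (TRIM28, CBX1, CBX3 and CBX5) and 6 with library size alone, and the DNMT1 term turned to -0.0088 (adjusted p = 0.948) at a common transcript length. Of all calls in the 3 lines, in the same order, 60.0%, 61.6% and 54.5% were higher, against 39.2%, 51.5% and 41.2% with library size alone. That scaling moved the median of all genes to -0.12, -0.081 and -0.16. The term sets the same uracil and 5-FU libraries of sensitive cells against those of resistant cells, so its size follows the sensitive response given above, and in HT-29 it compares the responses of libraries that carry the markers of different lines.

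At a common transcript length the other terms that ended in DLD-1 were 0.29 for SETDB1 (adjusted p = 0.0111), -0.13 for CHD3 (adjusted p = 0.229), 0.26 for EHMT2 (adjusted p = 0.015), -0.23 for DNMT3A (adjusted p = 0.124), 0.36 for DNMT3B (adjusted p = 0.0649). In HCT-116 the term of EHMT2 ended, at 0.059 (adjusted p = 0.559), and that of DNMT1 became 0.46 (adjusted p = 0.00199). In HT-29 the term of CBX1 ended, at 0.23 (adjusted p = 0.0123), those of TRIM28 and CBX5 became 0.65 and -0.45, and that of DNMT1 passed, at -0.23 (adjusted p = 0.0065), as it did with library size alone, at -0.16 (adjusted p = 0.00313).

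By edgeR irradiation added to 5-FU changed 0 or 1 of the 10 genes beyond 5-FU alone, or 5 in the libraries labelled resistant HT-29. These comparisons use the same 5-FU libraries as the comparisons with uracil. In sensitive DLD-1 none was called by edgeR (0.0642% of all genes were). There 4 of the 10 had an unadjusted p of at most 0.05 (11.2% of all genes), and DESeq2 called CBX5 at 0.16 (adjusted p = 0.00348). Of all calls there 57.1% were higher, against 68.8% with library size alone. In sensitive HT-29 none was called either (0.00842% of all genes), 1 had an unadjusted p of at most 0.05 (3.31% of all genes) and DESeq2 called 0. In sensitive HCT-116 only DNMT1 was called, where 0.927% of all genes were. Its libraries went from 88, 81.3 and 84.5 TPM to 60.1, 70.6 and 75.4 TPM, a log2 fold change of -0.27 (SE 0.036, adjusted p = 6.19e-05), and the call ended at a common transcript length (-0.30, adjusted p = 0.0685). In the same comparison 17 of the 20 replication and cycling genes fell (median -0.34), and their part in the DNMT1 value was not tested.

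In resistant cells DNMT1 fell again with added irradiation in HCT-116, from 148, 148 and 144 TPM to 128, 130.2 and 127 TPM (-0.20, SE 0.036, adjusted p = 0.00189), where 2.58% of all genes were called. The call ended at a common transcript length (-0.20, adjusted p = 0.181) and without resistant 5-FU replicate 1 (log2 fold change -0.20, adjusted p = 0.0113). CBX1 passed by DESeq2 (-0.21, adjusted p = 0.00839) and without the filter on low counts (-0.20, adjusted p = 0.00291). In resistant DLD-1 SETDB1 was at 29.4, 31.8 and 29.1 TPM under 5-FU and 24.8, 24.9 and 24.5 TPM with irradiation, -0.19 (SE 0.041, adjusted p = 0.00624), with 3.85% of all genes called. Although its groups did not overlap, that call was lost without any 1 of the 6 libraries compared (log2 fold change -0.16 to -0.20, adjusted p 0.0175 to 0.0408). It was -0.29 (adjusted p = 0.00527) at a common transcript length. TRIM28 passed with only the groups compared in the fit (-0.13, adjusted p = 0.00328). In the libraries labelled resistant HT-29 5 of the 10 genes were called, against 14.4% of all genes. CBX3 went from 301, 294 and 295 TPM to 257, 256 and 259 TPM (-0.25, SE 0.048, adjusted p = 3.36e-04). TRIM28 went from 1201, 1136 and 1201 TPM to 1019, 886 and 906 TPM (-0.17, SE 0.042, adjusted p = 0.0044), and neither gene's groups overlapped. CBX1 and DNMT1 fell, with log2 fold changes of -0.18 (SE 0.046, adjusted p = 0.00563) and -0.18 (SE 0.033, adjusted p = 1.84e-04). DNMT3A rose, 0.24 (SE 0.05, adjusted p = 8.23e-04), a call that ended at a common transcript length (0.16, adjusted p = 0.2). The TRIM28 call ended without resistant 5-FU replicate 1 or 2 or 3 or resistant 5-FU + irradiation replicate 2 or 3 (log2 fold change -0.15 to -0.18, adjusted p 0.0111 to 0.0436) and was -0.36 (adjusted p = 5.35e-04) at a common transcript length. That of CBX1 ended at a common transcript length (-0.18, adjusted p = 0.0172) and without resistant 5-FU replicate 1 or 2 or resistant 5-FU + irradiation replicate 2 or 3 (log2 fold change -0.14 to -0.17, adjusted p 0.0308 to 0.0658). Of the 20 replication and cycling genes 14 fell in these libraries (median -0.27).

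Resistant and sensitive cells were then compared under uracil, to ask whether the corepressor itself differed with the acquired phenotype. TRIM28 was higher in resistant HCT-116 and did not pass the test in resistant DLD-1, and DNMT3A was lower in both. In DLD-1 none of the 10 genes was higher and 3 were lower, against 13.1% and 11.5% of all genes. In HCT-116 4 were higher and 2 lower, against 16.4% and 24.7%. For the libraries labelled resistant HT-29, set against sensitive HT-29, 6 were higher and 3 lower, against 34.1% and 34.3%. Set against sensitive HCT-116, 2 were higher and 3 lower, against 8.86% and 18.7%. With library size alone 7 were higher and 2 lower in the former and 3 higher and 2 lower in the latter. The share of all calls that were higher moved from 49.8% to 61% and from 32.1% to 56.5%, and the median of all genes from 0.001 to 0.26 and from -0.025 to 0.092. These comparisons use the uracil libraries of sensitive cells that also served as controls for 5-FU.

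**Figure D4:**
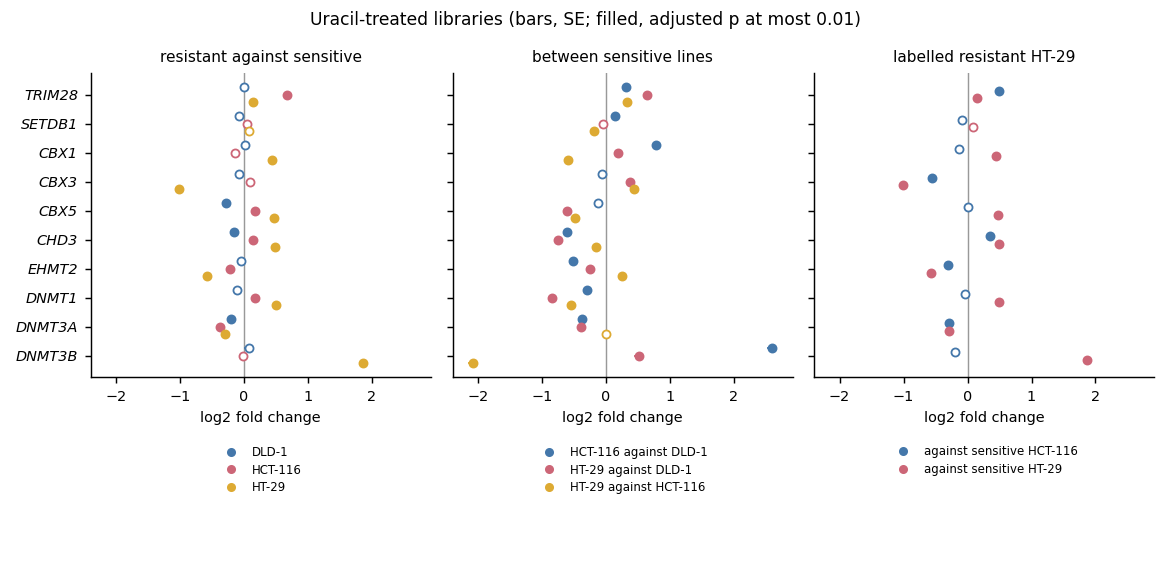
The log2 fold change of each gene under uracil (x axis; bars, SE; filled points, adjusted p of at most 0.01) is plotted for resistant against sensitive forms, for pairs of sensitive lines, and for the libraries labelled resistant HT-29 against sensitive HCT-116 and sensitive HT-29. DNMT3B of the last-named libraries lies at 1.87 from sensitive HT-29 and at -0.20 from sensitive HCT-116.

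TRIM28 was at 1156, 1249 and 1082 TPM in resistant HCT-116 and 688, 647 and 720.3 TPM in sensitive HCT-116, a log2 fold change of 0.68 (SE 0.047, adjusted p = 5.21e-11), or 1.60-fold. All resistant libraries were above all sensitive ones. In the libraries labelled resistant HT-29 TRIM28 was at 1089.5, 1019.9 and 1059 TPM, 0.49 (SE 0.063, adjusted p = 1.82e-06) against sensitive HCT-116. Against sensitive HT-29 the difference was 0.14 (SE 0.042, adjusted p = 0.00333), which turned to -0.0086 (adjusted p = 0.909) at a common transcript length. It was lost without resistant uracil replicate 1 or 2 (log2 fold change 0.13 to 0.14, adjusted p 0.0127 to 0.0184). In DLD-1 the resistant and sensitive values of 567 to 614 and 604 to 635 TPM overlapped, 0.0088 (SE 0.052, adjusted p = 0.922).

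SETDB1 did not pass in any of the 3 lines, at -0.076 (SE 0.04, adjusted p = 0.155) in DLD-1, 0.055 (SE 0.046, adjusted p = 0.339) in HCT-116 and 0.078 (SE 0.042, adjusted p = 0.0984) in HT-29. At a common transcript length it passed in HCT-116 at 0.25 (adjusted p = 0.0059) and turned in HT-29 to -0.25 (adjusted p = 4.10e-04). Against sensitive HCT-116 the libraries labelled resistant HT-29 were at -0.088 (SE 0.044, adjusted p = 0.129). Their value against sensitive HT-29 passed the other way with library size alone, at 0.34 (adjusted p = 6.52e-07) and without sensitive uracil replicate 3, at 0.14 (adjusted p = 0.00369). EHMT2 was lower in resistant HCT-116, -0.21 (SE 0.039, adjusted p = 9.22e-05), a call that ended at a common transcript length (-0.041, adjusted p = 0.523). The libraries labelled resistant HT-29 were lower than sensitive HT-29, -0.58 (SE 0.039, adjusted p = 5.00e-13). Against sensitive HCT-116 these libraries were at -0.31 (SE 0.048, adjusted p = 1.99e-05), lost at a common transcript length (-0.14, adjusted p = 0.0614). Its TPM in resistant HCT-116, 37.1 to 38, overlapped the 37.5 to 39.5 of sensitive HCT-116.

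Of the HP1 genes, CBX3 set the libraries labelled resistant HT-29 apart from both sensitive lines. It was at 294, 295 and 281 TPM there, 458, 457 and 436 TPM in sensitive HT-29 and 350.3, 359 and 370.2 TPM in sensitive HCT-116. The log2 fold changes were -1.01 (SE 0.048, adjusted p = 2.26e-16) and -0.56 (SE 0.058, adjusted p = 8.57e-08). CBX3 thus lay below both lines without overlap. It did not pass between resistant and sensitive DLD-1 (-0.077, SE 0.041, adjusted p = 0.164) or HCT-116 (0.10, SE 0.047, adjusted p = 0.0806). In HCT-116 it passed with library size alone (0.17, adjusted p = 0.00191) and at a common transcript length (0.16, adjusted p = 0.00762). CBX1 was at -0.13 (SE 0.056, adjusted p = 0.0547) in resistant against sensitive HCT-116, which passed without resistant uracil replicate 3 (-0.19, adjusted p = 0.00843). In the libraries labelled resistant HT-29 it was 0.45 (SE 0.046, adjusted p = 2.32e-09) against sensitive HT-29 and at -0.13 (SE 0.061, adjusted p = 0.0979) against sensitive HCT-116. CBX5 was at 0.0087 (SE 0.043, adjusted p = 0.906) against sensitive HCT-116, and passed there with library size alone (0.13, adjusted p = 0.00992). CBX5 was lower in resistant DLD-1, at 55.3, 51.2 and 51.8 TPM against 62.6, 62 and 61.8 TPM (-0.28, SE 0.037, adjusted p = 3.60e-06). It was higher in resistant HCT-116, at 52.6, 55 and 53.6 TPM against 48.6, 50.6 and 49.2 TPM (0.17, SE 0.047, adjusted p = 0.00376). Neither pair of groups overlapped, but the HCT-116 call ended at a common transcript length (0.10, adjusted p = 0.0519), where the value against sensitive HT-29 turned from 0.48 to -0.08 (adjusted p = 0.113). CHD3 was lower in resistant DLD-1, -0.16 (SE 0.039, adjusted p = 0.00321), and higher in resistant HCT-116, 0.15 (SE 0.041, adjusted p = 0.00337). With the resistant HT-29 label it was 0.49 (SE 0.039, adjusted p = 1.72e-11) against sensitive HT-29 and 0.35 (SE 0.043, adjusted p = 1.13e-06) against sensitive HCT-116. The DLD-1 call of CHD3 ended with only the groups compared in the fit (-0.15, adjusted p = 0.0215) and without resistant uracil replicate 3 or sensitive uracil replicate 2 or 3 (log2 fold change -0.14 to -0.16, adjusted p 0.0107 to 0.0217), and was -0.25 (adjusted p = 0.0013) at a common transcript length. The HCT-116 call ended at a common transcript length (0.15, adjusted p = 0.0552).

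DNMT3B gave the clearest difference by line. Its libraries labelled resistant HT-29 were at 13.4, 14.3 and 13.1 TPM, against 3.06, 2.85 and 3.12 TPM in sensitive HT-29 and 13.5, 15 and 13 TPM in sensitive HCT-116. The log2 fold change was 1.87 (SE 0.061, adjusted p = 7.05e-20) against the former, without overlap, and -0.20 (SE 0.069, adjusted p = 0.0289) against the latter, with overlap. In resistant HCT-116 and DLD-1 it was within -0.0058 and 0.087 of the sensitive cells (adjusted p = 0.951 and 0.437). DNMT3A was lower in resistant DLD-1, at 14.2, 12 and 14.3 TPM against 16.9, 19 and 17.5 TPM without overlap (-0.20, SE 0.039, adjusted p = 3.29e-04), though with only the groups compared in the fit this was -0.20 (adjusted p = 0.0191). At a common transcript length it was -0.41 (adjusted p = 2.67e-04). In resistant HCT-116 the call of -0.37 (SE 0.073, adjusted p = 2.29e-04) ended at a common transcript length (-0.23, adjusted p = 0.0156). TPM was 6.25 to 7.23 in resistant and 7.24 to 8.70 in sensitive HCT-116, next to each other without overlap. Against sensitive HT-29 the libraries labelled resistant HT-29 were at -0.30 (SE 0.051, adjusted p = 9.96e-06), which became -0.95 (adjusted p = 3.10e-10) at a common transcript length and -0.031 (adjusted p = 0.604) with library size alone. Against sensitive HCT-116 they were at -0.29 (SE 0.061, adjusted p = 6.36e-04), which turned to 0.0081 (adjusted p = 0.966). That last call also ended with library size alone (-0.16, adjusted p = 0.0452) and without HCT-116 sensitive uracil replicate 2 or HT-29 resistant uracil replicate 1 (log2 fold change -0.21 to -0.23, adjusted p 0.0157 to 0.0251). DNMT1 was higher in resistant HCT-116, 0.17 (SE 0.036, adjusted p = 4.23e-04), with overlapping TPM of 128 to 159 and 109 to 135, and was 0.30 (adjusted p = 0.00267) at a common transcript length. With the resistant HT-29 label DNMT1 was at 128, 124 and 135 TPM, above the 67.6, 67.3 and 75.9 TPM of sensitive HT-29 without overlap (0.50, SE 0.034, adjusted p = 4.41e-13), and -0.041 (SE 0.046, adjusted p = 0.529) against sensitive HCT-116. It did not pass in resistant DLD-1, -0.10 (SE 0.036, adjusted p = 0.0368), but did without resistant uracil replicate 3, -0.14 (adjusted p = 0.00911).

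Of all genes, 13.1% were higher and 11.5% lower in resistant DLD-1, and 16.4% and 24.7% in resistant HCT-116 (medians -0.0094 and 0.0046). Several counts of the lists are near these shares. Among the listed pathway genes the NuRD and corepressor group had 2 higher and 3 lower of 12 in resistant DLD-1 and 1 higher and 5 lower in resistant HCT-116 (medians -0.032 and -0.12). The H3K9 methylation and HUSH group had 0 and 2 of 10 in resistant DLD-1 and 2 and 2 in resistant HCT-116 (medians -0.10 and -0.021). Readers, cofactors and erasers of DNA methylation numbered 1 higher and 1 lower of 12 tested in DLD-1 and 6 higher and 1 lower in HCT-116 (medians -0.085 and 0.18). Germline genes, which are commonly silenced by promoter methylation, were mostly too low to test: of 14, 3 were tested in DLD-1 and 4 in HCT-116. None of those tested rose in resistant DLD-1 or resistant HCT-116, and 1 fell in HCT-116. Of the 20 replication and cycling genes, 1 was higher and 9 lower in resistant DLD-1 (median -0.17), where CBX5 was lower, and 12 higher and 1 lower in resistant HCT-116 (median 0.22), where CBX5 and DNMT1 were higher. Their part in those values was not tested.

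The sensitive lines themselves differed in this machinery, as compared under uracil. HCT-116 against DLD-1 had 4 of the 10 genes higher and 4 lower, where 31.0% of all genes were higher and 29.2% lower. HT-29 against DLD-1 had 4 higher and 5 lower (28.7% and 31.7% of all genes), and HT-29 against HCT-116 3 higher and 6 lower (31.2% and 34.4%). Library size alone put the median of all genes at -0.16 and -0.15 in the comparisons with HT-29. DNMT3B separated the lines most, with HCT-116 at 13.5, 15 and 13 TPM and DLD-1 at 2.07, 2.25 and 2.53 TPM, a log2 fold change of 2.60 (SE 0.076, adjusted p = 2.24e-18) or 6.08-fold. HT-29 was -2.08 (SE 0.076, adjusted p = 9.34e-17) against HCT-116 and 0.53 (SE 0.08, adjusted p = 4.21e-06) against DLD-1, so the order HCT-116, HT-29, DLD-1 had no overlapping neighbours. TRIM28 had another order, with 859 ± 50.3 TPM (SD, n = 3) in HT-29, 685 ± 36.6 in HCT-116 and 618 ± 15.7 in DLD-1. HT-29 exceeded DLD-1 by 0.65 (SE 0.063, adjusted p = 4.65e-09) and HCT-116 by 0.34 (SE 0.063, adjusted p = 4.99e-05). The difference between HCT-116 and DLD-1, 0.31 (SE 0.063, adjusted p = 1.48e-04), was lost at a common transcript length (0.13, adjusted p = 0.086).

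CBX1 was highest in HCT-116, at 199, 193 and 207 TPM against 117, 114 and 114 TPM in DLD-1 (0.79, SE 0.062, adjusted p = 1.28e-10) and 120.2, 123 and 113 TPM in HT-29, whose values overlapped those of DLD-1. CBX3 was highest in HT-29 (0.44 (SE 0.058, adjusted p = 4.36e-07) against HCT-116). DNMT1 was lowest in HT-29, at 67.6, 67.3 and 75.9 TPM, with -0.85 (SE 0.046, adjusted p = 1.78e-13) against DLD-1 and -0.55 (SE 0.046, adjusted p = 3.06e-10) against HCT-116. CHD3 was highest in DLD-1, with HCT-116 at -0.60 (SE 0.043, adjusted p = 3.32e-11) and HT-29 at -0.74 (SE 0.043, adjusted p = 6.80e-13) against it. EHMT2 was highest in DLD-1 as well, with -0.51 (SE 0.047, adjusted p = 2.22e-09) in HCT-116 and -0.25 (SE 0.047, adjusted p = 6.22e-05) in HT-29. For 3 genes the direction between lines depended on transcript length. SETDB1 of HT-29 against HCT-116 turned from -0.18 to 0.24 (adjusted p = 5.98e-04), against DLD-1 from -0.037 to 0.21 (adjusted p = 0.00222), and HCT-116 against DLD-1 from 0.14 to -0.032 (adjusted p = 0.631). With library size alone SETDB1 of HT-29 against DLD-1 passed in the direction of the counts (-0.16, adjusted p = 0.00701). CBX5 of HT-29 against HCT-116 turned from -0.48 to 0.069 (adjusted p = 0.193) and against DLD-1 went from -0.60 to -0.28 (adjusted p = 2.43e-05), and DNMT3A of HT-29 against HCT-116 from -0.0027 to 0.95 (adjusted p = 2.50e-09). DNMT3A of HCT-116 against DLD-1 went from -0.38 (SE 0.059, adjusted p = 6.68e-06) to -1.20 (adjusted p = 9.00e-11) and of HT-29 against DLD-1 from -0.38 to -0.25 (adjusted p = 0.0102). Its TPM was 7.24, 8.70 and 7.64 in HCT-116, 16.9, 19 and 17.5 in DLD-1 and 13.2, 14 and 13.3 in HT-29, with no overlap.

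Several small differences between lines changed side of the threshold with the fit. Leaving out a library also redid the filter and the scaling, so such a change is not that of the library alone. The call of SETDB1 in HCT-116 against DLD-1 ended without the filter on low counts (0.12, adjusted p = 0.128) and without any 1 of the 6 libraries compared (log2 fold change 0.074 to 0.11, adjusted p 0.0617 to 0.205). The one in HT-29 against HCT-116 ended without HCT-116 sensitive replicate 1 or 2 or 3 or HT-29 sensitive replicate 1 (log2 fold change -0.13 to -0.15, adjusted p 0.0103 to 0.0348). The call of CBX1 in HT-29 against DLD-1, 0.20 (SE 0.062, adjusted p = 0.00659), ended with library size alone (0.079, adjusted p = 0.139), without the filter on low counts (0.16, adjusted p = 0.026) and without HT-29 sensitive replicate 1 or 2 or DLD-1 sensitive replicate 1 or 2 or 3 (log2 fold change 0.16 to 0.20, adjusted p 0.0171 to 0.0508). That of CHD3 in HT-29 against HCT-116, -0.15 (SE 0.043, adjusted p = 0.00466), ended without the filter on low counts (-0.17, adjusted p = 0.0105) and without HCT-116 sensitive replicate 1 or 2 or 3 or HT-29 sensitive replicate 1 or 2 (log2 fold change -0.077 to -0.13, adjusted p 0.0209 to 0.148). CBX5 in HCT-116 against DLD-1, -0.13 (SE 0.043, adjusted p = 0.0117), passed with DESeq2 (-0.11, adjusted p = 0.00681), at a common transcript length (-0.35, adjusted p = 1.63e-06) and without any 1 of 5 of the 6 libraries.

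The genes whose levels ran most like each of the 10 were found by Pearson's r over the 18 condition means of log2(TPM + 1), among 21996 genes that reached 1 TPM in a condition. The points share libraries within lines, so r is a description. Over all conditions DNMT3B was most like LINC01098, RADX and AC019068.1 (r = 0.994, 0.993 and 0.993), and DNMT3A like AC012368.2, AP2B1 and FSIP2 (r = 0.982, 0.981 and 0.980). CBX5 was most like RRM2, the ribonucleotide reductase subunit, with PKMYT1 and TIMELESS next (r = 0.970, 0.965 and 0.964), and DNMT1 like WDHD1, LMF2 and IFI27L1 (r = 0.969, 0.967 and 0.959). CBX1 was most like SUMO2, TAF12 and TIGD6 (r = 0.984, 0.964 and 0.958) and TRIM28 like CNTF, MORN1 and TMEM143 (r = 0.974, 0.954 and 0.943). When the mean of each line and form was subtracted first, so that the treatments alone were compared, DNMT1 was most like PKMYT1, RAD54L and WDR62 (r = 0.980, 0.977 and 0.977). CBX5 was most like ACOT7, CCHCR1 and RECQL (r = 0.980, 0.976 and 0.975) and CBX3 like U2SURP, PPP1CC and RXYLT1 (r = 0.976, 0.974 and 0.972). TRIM28 was then most like CCDC121, CD320 and TMEM143 (r = 0.933, 0.931 and 0.930). CHD3 was most like WDTC1, AP002478.1 and DPP4 (r = 0.983, 0.976 and 0.976) and DNMT3B like PPM1G, ABCB10 and COLGALT1 (r = 0.957, 0.955 and 0.953). SETDB1 and EHMT2 reached at most 0.908 and 0.926.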

How the data were processed

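RNA-seq was performed on 54 libraries of 3 CRC lines, 3 biological replicates in each of 18 conditions. Per the labels and the study's methods, the authors trimmed reads with Trimmomatic 0.36, checked them with FastQC 0.11.8 and quantified transcripts of GRCh38.p13 with kallisto 0.44.0. The deposited tables hold estimated counts, which need not be whole, and TPM per transcript and per gene. TPM values were used as deposited for levels and shares. Estimated counts were rounded and tested with edgeR 4.0.16 (R 4.3.3; TMM scaling, filterByExpr, quasi-likelihood test, Benjamini-Hochberg adjustment) in 1 fit per line over its 6 conditions, in 1 fit over the 18 uracil libraries between lines, and in 1 fit over the sensitive uracil and 5-FU libraries for differences of response between lines, the last added after seeing the data. The SE of an edgeR value was derived from its test, as the absolute log2 fold change divided by the square root of the F statistic. Scripts were tested on simulated data. Total estimated counts ranged from 38957142 to 218518344, and p-values measure the spread between the replicates only. DESeq2 1.42.0, other scalings and filters, the replicate number as a block, left-out libraries, a thinned deepest library and a common transcript length were tried. Transcripts were matched to GENCODE 44 by identifier (98.4% of 227301), and start windows were taken from RefSeq on GRCh38.p14. All 10 genes are named, and of each gene list at most 4 genes called at 2-fold or more, those of smallest adjusted p. A named result of one list is not reported here. The genes and lists were chosen with earlier results of these data known. For each of the 10 genes the 3 genes of highest Pearson's r are named. TRIM28 had no start window in the tables used here.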

Additional observations from a re-analysis of the deposited data

Results flagged for a closer look

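The differences below are log2 differences between 2 responses to 5-FU that passed the edgeR interaction test at an adjusted p of at most 0.01; groups of 3 libraries were too small for a test of single outlying libraries. For resistant minus sensitive cells they were 0.40 for TRIM28, 0.27 for SETDB1, 0.43 for CBX1, 0.36 for CBX3, 0.23 for CBX5, -0.24 for CHD3, 0.33 for EHMT2, 0.24 for DNMT1, -0.24 for DNMT3A, 0.41 for DNMT3B in DLD-1. In HCT-116 they were 0.33 for TRIM28, 0.80 for CBX1, 0.42 for CBX3, 0.93 for CBX5, 0.31 for CHD3, 0.20 for EHMT2, 0.91 for DNMT1, 0.39 for DNMT3B. In HT-29, where the libraries labelled resistant carried the markers of HCT-116, they were 0.35 for TRIM28, 0.22 for CBX1, 0.56 for CBX3, -0.80 for CBX5, -0.68 for CHD3, 0.43 for EHMT2, 0.55 for DNMT3B. Between sensitive lines, HCT-116 minus DLD-1 gave 0.35 for SETDB1, -0.30 for CBX1, -0.69 for CBX5, -0.31 for CHD3, 0.18 for EHMT2, -0.63 for DNMT1. HT-29 minus DLD-1 gave 0.24 for CBX1, 1.03 for CBX5, 0.54 for CHD3, 0.32 for DNMT1. HT-29 minus HCT-116 gave -0.22 for SETDB1, 0.54 for CBX1, 1.72 for CBX5, 0.85 for CHD3, -0.24 for EHMT2, 0.95 for DNMT1. The calls below ended under an alternative. SETDB1 in DLD-1 ended with library size alone (0.16, adjusted p = 0.0365) and at a common transcript length (0.29, adjusted p = 0.0111). CBX5 in DLD-1 ended with library size alone (0.13, adjusted p = 0.0987). CHD3 in DLD-1 ended at a common transcript length (-0.13, adjusted p = 0.229). EHMT2 in DLD-1 ended at a common transcript length (0.26, adjusted p = 0.015). DNMT1 in DLD-1 ended with library size alone (0.13, adjusted p = 0.0444) and at a common transcript length (-0.0088, adjusted p = 0.948). DNMT3A in DLD-1 ended at a common transcript length (-0.23, adjusted p = 0.124). DNMT3B in DLD-1 ended with library size alone (0.31, adjusted p = 0.0408), without the filter on low counts (0.40, adjusted p = 0.032), with only the groups compared in the fit (0.41, adjusted p = 0.0219), at a common transcript length (0.36, adjusted p = 0.0649) and without resistant 5-FU replicate 1 or 2 or resistant uracil replicate 2 or 3 or sensitive 5-FU replicate 1 or 2 or 3 or sensitive uracil replicate 2 or 3 (log2 fold change 0.34 to 0.43, adjusted p 0.0104 to 0.0323). EHMT2 in HCT-116 ended with library size alone (0.12, adjusted p = 0.0723), without the filter on low counts (0.19, adjusted p = 0.055), at a common transcript length (0.059, adjusted p = 0.559) and without resistant 5-FU replicate 1 or 3 or resistant uracil replicate 2 or 3 or sensitive 5-FU replicate 2 or 3 or sensitive uracil replicate 1 or 3 (log2 fold change 0.19 to 0.21, adjusted p 0.0116 to 0.0196). DNMT3B in HCT-116 ended with library size alone (0.32, adjusted p = 0.0147). CBX1 in HT-29 ended with DESeq2 (0.20, adjusted p = 0.0147), with library size alone (0.082, adjusted p = 0.141), with only the groups compared in the fit (0.20, adjusted p = 0.0215), at a common transcript length (0.23, adjusted p = 0.0123) and without resistant 5-FU replicate 1 or 2 or 3 or resistant uracil replicate 1 or 2 or 3 or sensitive 5-FU replicate 1 or 2 or 3 or sensitive uracil replicate 1 or 2 (log2 fold change 0.13 to 0.23, adjusted p 0.0131 to 0.113). CHD3 of HCT-116 minus DLD-1 ended at a common transcript length (-0.22, adjusted p = 0.0227). EHMT2 of HCT-116 minus DLD-1 ended with DESeq2 (0.16, adjusted p = 0.0103), without the filter on low counts (0.16, adjusted p = 0.152), with only the groups compared in the fit (0.15, adjusted p = 0.0192), with the deepest library thinned (0.18, adjusted p = 0.0116) and without HCT-116 5-FU replicate 1 or 3 or HCT-116 uracil replicate 2 or 3 or DLD-1 5-FU replicate 1 or 2 or 3 or DLD-1 uracil replicate 1 or 2 or 3 (log2 fold change 0.16 to 0.20, adjusted p 0.0129 to 0.036). CBX1 of HT-29 minus DLD-1 ended with DESeq2 (0.20, adjusted p = 0.0326), without the filter on low counts (0.23, adjusted p = 0.0113), with only the groups compared in the fit (0.22, adjusted p = 0.0145), at a common transcript length (0.25, adjusted p = 0.0133) and without HT-29 5-FU replicate 1 or 2 or HT-29 uracil replicate 3 or DLD-1 5-FU replicate 1 or 2 or DLD-1 uracil replicate 1 or 2 or 3 (log2 fold change 0.18 to 0.26, adjusted p 0.0111 to 0.032). SETDB1 of HT-29 minus HCT-116 ended with library size alone (-0.20, adjusted p = 0.0123), without the filter on low counts (-0.21, adjusted p = 0.0358) and at a common transcript length (-0.21, adjusted p = 0.0374). EHMT2 of HT-29 minus HCT-116 ended without the filter on low counts (-0.22, adjusted p = 0.0172).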

How the results depend on the processing

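Over 25 comparisons of the 10 genes, 250 results, direction and side of the threshold held for 241 with DESeq2, 225 with library size alone, 239 without the filter on low counts, 241 with only the groups compared and 208 at a common transcript length, an alternative chosen after seeing the data. With the replicate block 244 of 250 held and the count of called genes changed by over 1.5 times only for DLD-1 resistant irradiation, which became 0. The block ended the calls of SETDB1 in DLD-1 resistant irradiation (-0.19, adjusted p = 0.0113), DNMT3B in DLD-1 interaction (0.41, adjusted p = 0.0128), SETDB1 in HCT-116 against DLD-1 (0.14, adjusted p = 0.0116), EHMT2 in response of HCT-116 minus DLD-1 (0.19, adjusted p = 0.0121), CBX1 in response of HT-29 minus DLD-1 (0.24, adjusted p = 0.011) and added DNMT3A in HT-29 interaction (0.21, adjusted p = 0.00939). Replicate numbers did not pair the samples: none of 45 same-number pairs per line correlated above 0.1 (median r 0.0028 for DLD-1, 0.0097 for HCT-116, 0.0075 for HT-29). The number of the 10 genes called moved with DESeq2 from 0 to 1 for DLD-1 sensitive irradiation and to 1 for DLD-1 resistant 5-FU, and from 1 to 2 for HCT-116 resistant irradiation, which was also 2 without the filter. With only the groups compared it was 2 against 1 for DLD-1 resistant irradiation and 1 against 3 for DLD-1 resistant against sensitive. For the DLD-1 interaction it was 6 with library size alone and 4 at a common transcript length, against 10. At a common transcript length it was 0 for HCT-116 sensitive irradiation, 0 for HCT-116 resistant irradiation, 3 for irradiation in the libraries labelled resistant HT-29 and 3 for these against sensitive HCT-116. The 10 directions that turned at that length were DNMT1 in the DLD-1 interaction (-0.0088, adjusted p = 0.948), TRIM28 -0.0086, SETDB1 -0.25 and CBX5 -0.0803 in the libraries labelled resistant HT-29 against sensitive HT-29, SETDB1 -0.032 in HCT-116 against DLD-1 and 0.21 in HT-29 against DLD-1, SETDB1 0.24, CBX5 0.069 and DNMT3A 0.95 in HT-29 against HCT-116, and DNMT3A 0.0081 against sensitive HCT-116. The construction of this alternative removes the mean transcript length of the gene in each library; other causes were not tested. Without 1 library the counts ran 7 to 8 for DLD-1 sensitive 5-FU, 0 for DLD-1 resistant irradiation, 2 to 3 for DLD-1 resistant against sensitive, 9 to 10 for DLD-1 interaction, 0 to 1 for HCT-116 resistant irradiation, 6 to 7 for HCT-116 resistant against sensitive, 7 to 8 for HCT-116 interaction, 7 to 8 for HT-29 sensitive 5-FU, 3 to 5 for HT-29 resistant irradiation, 8 to 10 for HT-29 resistant against sensitive, 6 to 7 for HT-29 interaction, 7 to 8 for HCT-116 against DLD-1, 8 to 9 for HT-29 against DLD-1, 7 to 9 for HT-29 against HCT-116, 4 to 5 for HT-29 resistant against HCT-116 sensitive, 5 to 6 for response of HCT-116 minus DLD-1, 3 to 4 for response of HT-29 minus DLD-1. The genes most like DNMT3B over the conditions changed with a pseudocount of 0.1 (0 of 3 shared), and 4 of 20 such lists moved. At the thinned depth of the deepest library 69 of 70 results held.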
